A study of Triticum aestivum and Aegilops tauschii and Triticum carthlicum with 33 samples.

Results

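Transcripts of wheat leaves were followed across 11 groups of plants and RNA mixes. They were lower in a tetraploid extracted from bread wheat than in the bread wheat TAA10. In neither D genome line were they higher than in the extracted tetraploid, but they could still be expressed there. From 61179 probe sets, 8101 had a mean of at least 6 log2 units in TAA10 and a mean in both D genome lines at or below that of the extracted tetraploid. The 100 of these in which the extracted tetraploid lay farthest below TAA10 are described here. They were chosen by the group means of Extracted-tetra, TAA10, TQ18 and 30A, so differences among these lines are given as descriptions with no test.

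Each group had 3 arrays labelled as biological replicates, made from leaves of chamber-grown plants and hybridised to the Affymetrix wheat array. Growth settings were the same for all groups: lamps on for 16 h daily, a daytime temperature of 24 °C and a lower one of 20 °C overnight. Extracted-tetra carries the B and A genomes of a common wheat, recovered by crossing to a durum line and repeated backcrossing to the hexaploid parent. The labels do not name that donor, which is taken to be TAA10 from what is known of the study. XX329 is a hexaploid resynthesized with Extracted-tetra as mother; its other parent is taken to be TQ18, from the composition of its mix. XX329 mix is RNA of Extracted-tetra and TQ18 mixed 2 parts to 1. The natural tetraploids of T. turgidum are TTR13 (ssp. durum), TD265 (ssp. dicoccoides, wild emmer) and Blackbird (ssp. carthlicum). Allo-960S7 is a synthetic hexaploid in selfed generation 7, and Allo-960 mix is Blackbird and 30A RNA mixed 2 parts to 1. TQ18 and 30A are lines of Aegilops tauschii, the diploid D genome species, and TAA10 is bread wheat, T. aestivum. Each group stands for 1 line, so differences between groups are differences between lines.

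Bread wheat holds 3 related genomes, B, A and D, and most of its genes are present as homoeologs, matching copies in each genome. A probe set usually reads several homoeologs together. When the D genome is removed, D transcripts are lost, and B and A transcripts take a larger share of the RNA. The D genome of TAA10 was not measured alone, and TQ18 and 30A stand in for it here. The remaining arrays show whether the level returned towards that of bread wheat in a resynthesized hexaploid, and where natural tetraploids stood.

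Array medians ranged from 4.37 to 4.48 log2 units, and a fold that involves a level near or under them is not secure. Arrays of a group correlated across probe sets with r between 0.979 and 0.996, and the lowest value was between XX329 arrays. The hybridisation controls averaged 8.64 to 9.11 log2 units on the 12 arrays of Allo-960S7, its mix, Blackbird and 30A, and at least 9.35 on the other 21, so in Blackbird against XX329 mix the line and this set of arrays cannot be told apart. The actin 3′ minus 5′ difference was 0.337 ± 0.245 log2 units for Extracted-tetra, −0.406 ± 0.182 for XX329, −0.139 ± 0.362 for XX329 mix and −0.464 ± 0.186 for TAA10 (SD, n = 3 each). Its part in the choice of members was not tested. Of the leaf genes, the brightest probe set of rbcl, the large subunit of Rubisco, had group means of at least 14.9, and that of FBP, a fructose-bisphosphatase, of at least 11.8; other probe sets of both lay far lower. The gliadin probe sets, which read seed storage proteins, had group means of at most 5.20.

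The rule keeps probe sets in which Extracted-tetra is at least as high as both D genome lines, which favours high values in Extracted-tetra. Of the 8101 candidates, 7411 had a higher mean in Extracted-tetra than in TAA10 and 690 a lower one, with a median difference of 0.38 log2 units, against 0.05 over all probe sets. A mean at least 1 log2 unit lower was found in 34 candidates and a mean at least 1 log2 unit higher in 381. Across the 100 members the difference of Extracted-tetra from TAA10 had a median of −0.72, a 1.65-fold gap, and ran from −6.37 to −0.42. It was at least 3 log2 units in 8 members and at least 2 in 13. In 69 members the arrays of both groups did not overlap (12.3% of all probe sets), and 56 had a lower call in limma (7.04% of all probe sets); since the rule used this contrast, nothing is read from these counts.

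**Figure D1:**
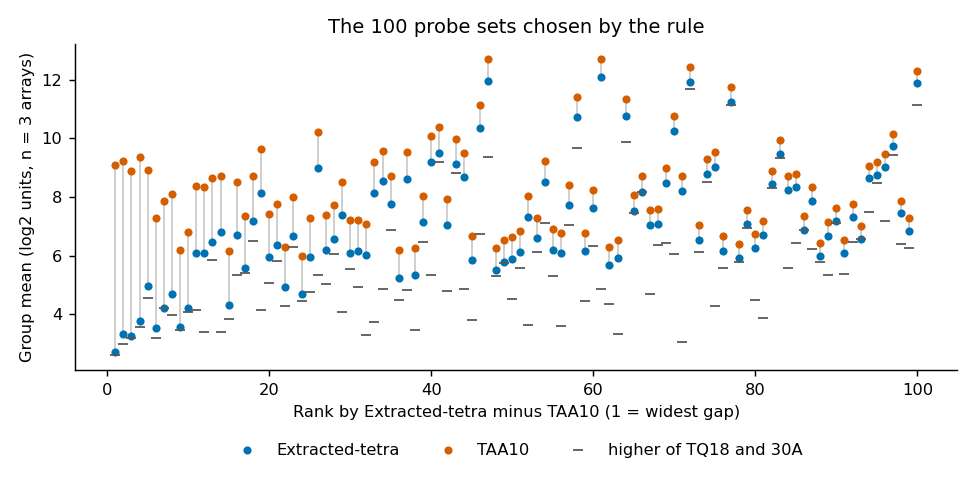
Group means (log2 units, n = 3 arrays) of Extracted-tetra, TAA10 and the higher of TQ18 and 30A for the 100 members, ordered by rank. The gap is at least 3 log2 units in 8 members and under 1 log2 unit in 66, and the bars of the D genome lines lie at or below Extracted-tetra throughout, as the rule requires.

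The edge of the list fell within a continuous run of values. The members ranked 98 to 100 were TaAffx.93332.1.S1_at, Ta.11512.1.A1_x_at and Ta.21082.2.S1_s_at, the last with a difference of −0.42. Ta.3745.3.A1_a_at, Ta.19870.3.S1_x_at and Ta.16270.1.S1_at stood just outside, the first of them also at −0.42. The D genome limit was close in 8 members, in which Extracted-tetra exceeded the higher of TQ18 and 30A by under 0.1 log2 units. The median of this margin over members was 0.79. In 29 members both D genome lines lay under the highest array median.

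The widest gaps belonged to transcripts that were bright in TAA10 and near or under the array medians in nearly all other groups. Ta.28115.1.S1_at read 2.73, 2.72 and 2.67 log2 units in Extracted-tetra, 2.47, 2.61 and 2.43 in XX329, and 9.10, 9.16 and 8.99 in TAA10. Its means in TTR13, TD265 and Blackbird were 2.61, 2.38 and 2.39. All TAA10 arrays were thus far above every other array. Ta.7926.1.A1_at read 3.00, 3.66 and 3.36 in Extracted-tetra, 2.97, 2.65 and 2.78 in XX329, and 9.14, 9.42 and 9.15 in TAA10. Ta.1841.1.S1_at read 3.18, 3.41 and 3.19 in Extracted-tetra, 3.24, 2.70 and 2.87 in XX329, and 9.01, 8.97 and 8.69 in TAA10. Neither had a group mean above 3.34 outside TAA10, so the measured gap holds only as far as signals this low can be trusted.

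Other members of the top 10 had the same shape with small departures. Ta.426.1.A1_at averaged 3.78 ± 0.743 in Extracted-tetra, 4.42 ± 0.728 in XX329, 5.14 ± 0.499 in TTR13, 4.72 ± 0.88 in Blackbird and 9.38 ± 0.696 in TAA10 (SD, n = 3 each). TaAffx.21383.1.S1_at stood at 4.95 ± 0.417 in Extracted-tetra, against 8.90 ± 0.1 in TAA10 (SD, n = 3 each), and no other group mean exceeded that of Extracted-tetra. Ta.12547.1.S1_at averaged 3.53 in Extracted-tetra, 5.43 in Allo-960S7 and 7.29 in TAA10. The pair TaAffx.7104.1.S1_at and TaAffx.7104.1.S1_x_at, named from the same sequence, averaged 4.23 and 4.22 in Extracted-tetra and 7.86 and 6.81 in TAA10. Ta.7923.1.A1_at averaged 3.57 in Extracted-tetra, against 6.19 in TAA10. TaAffx.36710.1.S1_at was the exception: it read 7.59, 7.45 and 7.45 in TD265, a level near that of TAA10 (8.25, 8.31 and 7.74), but 4.44, 4.72 and 4.94 in Extracted-tetra. Wild emmer was therefore the natural tetraploid in which this transcript was bright.

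In 16 members the TAA10 mean was more than 1 log2 unit above that of each of the other 10 groups, and in all 16 the lowest TAA10 array was above the highest of the other 30 arrays. In 8 of them the margin was more than 2 log2 units. The rule chose members for high values in TAA10, so these counts are descriptive. Among all probe sets, 98 had such a margin over 1 log2 unit and 46 over 2, and a margin over 2 was held by 49 probe sets in TTR13 and 98 in TD265. On arrays the rule did not use, none of the 16 was called by limma between XX329 and XX329 mix (adjusted p from 0.0938 to 0.989). The 2 brightest of them in Extracted-tetra were Ta.27307.1.S1_at, at 8.12 in Extracted-tetra, 6.93 in XX329 and 9.62 in TAA10, and Ta.18206.1.S1_at, at 8.15 in Extracted-tetra, 7.17 in XX329 and 9.20 in TAA10; they were singled out after their values were seen.

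**Figure D2:**
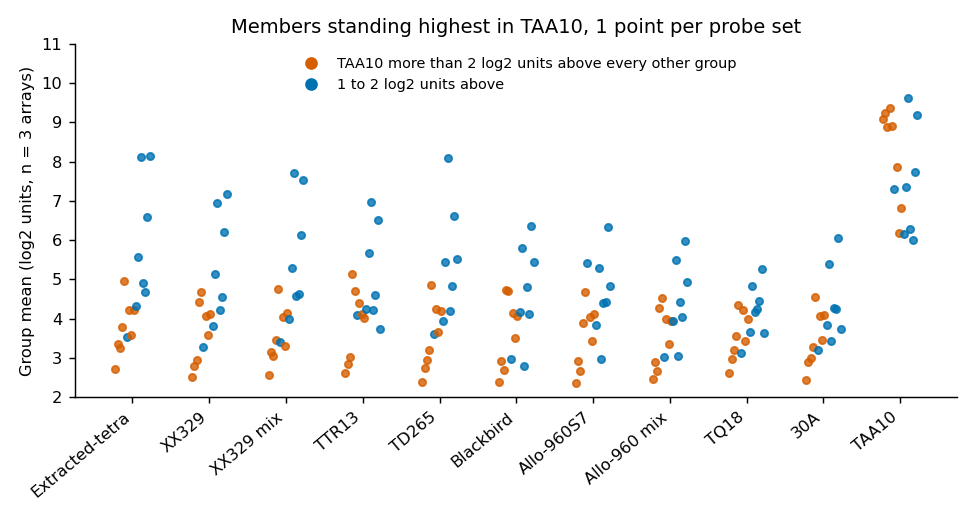
Group means (log2 units, n = 3 arrays) of the 16 members in which TAA10 stood more than 1 log2 unit above every other group, 1 point per probe set and group. The orange points, the 8 members with a margin over 2 log2 units, lie at 5.14 or lower in every group but TAA10.

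XX329 joins the B and A genomes of Extracted-tetra with a D genome, and XX329 mix gives the level of the parents' RNA combined without a cross. Against this mix, 22 of the 100 members were higher and 2 lower in XX329 (limma, adjusted p under 0.05 over 61179 probe sets). Over all probe sets 0.94% were higher and 0.943% lower, and over the other 8001 candidates 0.837% were higher and 2.77% lower. The median difference over members was 0.34 log2 units, against −0.06 over the other candidates. At an unadjusted p under 0.05, 37 members were higher and 9 lower. The share of all probe sets at this threshold was not counted, so nothing is read from these counts. Neither group was used by the rule, but the mix contains Extracted-tetra RNA. Whether it came from the same extracts was not stated; if it did, low values that chose the members would also lower the mix, and the 2 cannot be told apart. The deviations of same-numbered Extracted-tetra and XX329 mix arrays from their group means correlated at −0.152, −0.0457 and −0.00762 across probe sets. This cannot decide whether extracts were shared, since group means are removed and the labels do not tie replicate numbers to extracts. The mix of members lay −0.07 log2 units from the level calculated from its parents' means (median; −0.06 over the other candidates).

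The number of calls depended on the error estimate. In a fit limited to XX329 and XX329 mix, 4 members were called higher and 0 lower, of 0.0392% and 0.0703% of all probe sets. Centring arrays on the hybridisation controls left 13 higher and 2 lower, of 0.195% and 0.951% of all probe sets. Leaving out single arrays gave 15 to 23 higher. Without XX329 replicates 1, 2 and 3 the higher members were 21, 15 and 23, of 0.642%, 0.58% and 2.13% of all probe sets. The share of all probe sets thus rose as well without replicate 3. For left-out XX329 mix arrays this share was not counted. The actin difference as a covariate gave 20 higher and 1 lower, of 0.879% and 0.842% of all probe sets. Of the XX329 mix arrays, replicate 3 was the lowest in 58 of the 100 members, and replicates 1 and 2 in 12 and 30.

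The largest rises, described first, were in probe sets for which both D genome lines lay under the highest array median. That held for 5 of the 22 members that rose, and for 29 of all 100 members. TaAffx.85073.1.S1_at read 9.64, 8.96 and 9.57 in XX329, against 5.60, 5.58 and 3.95 in XX329 mix, a 20.3-fold difference (log2 difference 4.34, SE 0.41; limma adjusted p = 1.17e-07). All XX329 arrays were above those of the mix and also above those of TAA10 (7.82, 8.34 and 8.88). TaAffx.85866.1.S1_at read 9.95, 9.32 and 9.80 in XX329, against 6.09, 6.89 and 5.07 in XX329 mix, 12.8-fold (3.68, SE 0.40; limma adjusted p = 1.26e-06). Ta.17127.1.A1_at read 9.94, 8.88 and 9.71 in XX329, against 6.55, 7.35 and 5.84 in XX329 mix, 7.62-fold (2.93, SE 0.35; limma adjusted p = 8.9e-06). TQ18 averaged 3.27, 3.37 and 3.15 for these probe sets, under the array medians.

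Ta.27763.2.S1_a_at and TaAffx.110724.1.S1_at also rose, with arrays of XX329 that differed widely. Ta.27763.2.S1_a_at read 10.30, 8.14 and 7.62 in XX329, against 5.96, 5.83 and 6.00 in XX329 mix (2.75, SE 0.45; limma adjusted p = 0.000567). TaAffx.110724.1.S1_at read 7.35, 7.94 and 9.47 in XX329, against 6.40, 6.17 and 6.05 in XX329 mix (2.05, SE 0.38; limma adjusted p = 0.00264). In both, every XX329 array was above every mix array, but neither was called in the fit limited to both groups (limma adjusted p = 0.156 and 0.193).

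In all 22 members that rose, the XX329 arrays did not overlap those of the mix. These members were selected by their call in this same contrast, and the share of all probe sets was not counted. Nothing is therefore read from the lack of overlap. The median difference over the 22 was 1.20 log2 units, or 2.30-fold. The XX329 mean was above that of Extracted-tetra in all 22 and at or above that of TAA10 in 15. Among them Ta.4102.1.S1_at had the smallest adjusted p, 5.62e-09 in limma, with means of 9.03 in XX329, 7.38 in XX329 mix, 7.75 in Extracted-tetra and 8.73 in TAA10; it was named after its values were seen. Some were among the brightest on the array: Ta.28496.1.A1_at averaged 12.9 in XX329, 11.7 in XX329 mix and 12.7 in TAA10. The 22 probe sets came from 19 name stems, so a few read the same transcript.

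The 2 members that fell moved farther from TAA10. Ta.7679.1.S1_a_at read 6.22, 6.52 and 7.14 in XX329, against 8.05, 7.67 and 7.96 in XX329 mix (−1.27, SE 0.20; limma adjusted p = 0.000384); TAA10 read 9.61, 9.81 and 9.31. Ta.1450.3.S1_at read 5.12, 5.05 and 4.42 in XX329, against 5.95, 5.38 and 5.98 in XX329 mix (−0.91, SE 0.24; limma adjusted p = 0.0469). The call of Ta.1450.3.S1_at was lost without any single XX329 array, without XX329 mix replicate 1 or 3, and with median centring, repeated quantile normalization, array weights, the replicate block or the actin covariate (limma adjusted p from 0.0501 to 0.173). In the fit limited to both groups neither fall was called (limma adjusted p = 0.107 and 0.274). Other probe sets of the Ta.1450.3.S1_at stem did not all lie below TAA10. In 2 of them Extracted-tetra was 1.88 and 1.69 log2 units above TAA10. Both were also called lower in XX329 than in XX329 mix (−0.61 and −0.62, limma adjusted p = 0.0247 and 0.039). In another, Extracted-tetra minus TAA10 was −1.17, and XX329 was not called against the mix (−0.22, limma adjusted p = 0.598). The count of members called lower was 1 without XX329 replicate 1, without XX329 replicate 2 or without XX329 mix replicate 1, and 6 without XX329 replicate 3. Of all probe sets, 0.718%, 0.74% and 1.56% were called lower without XX329 replicates 1, 2 and 3.

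**Figure D3:**
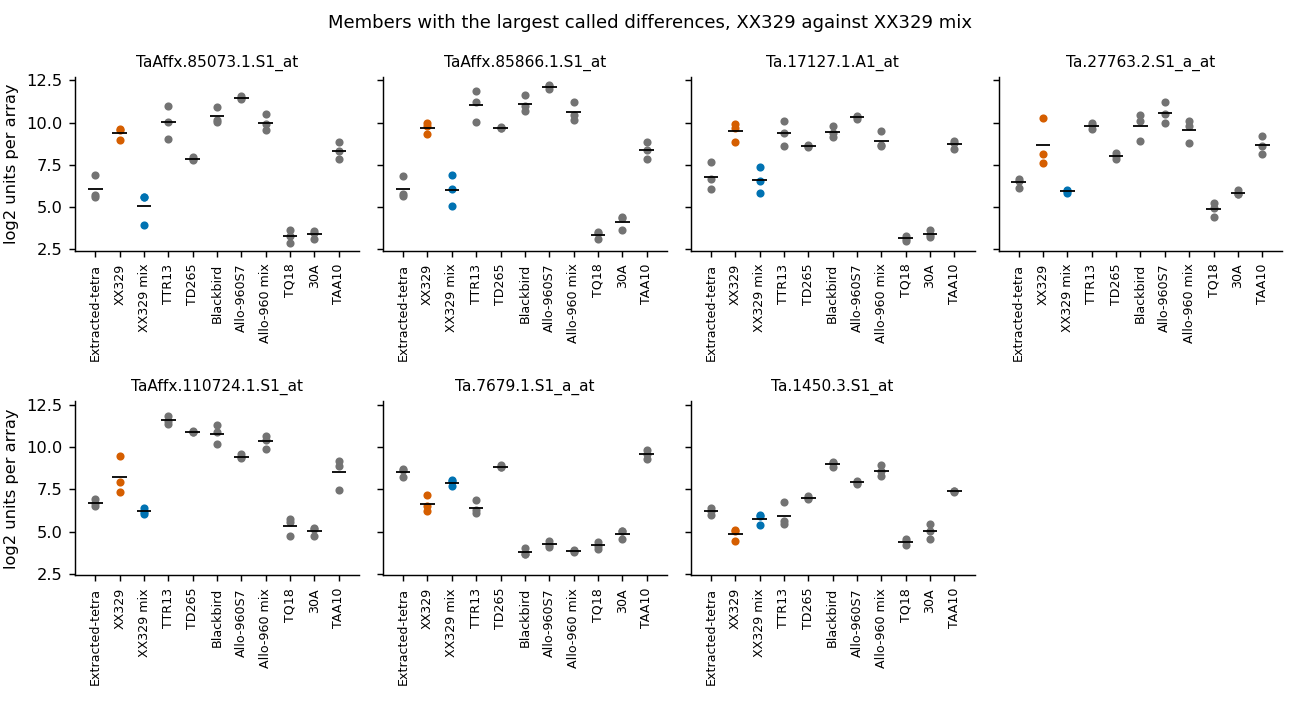
Values of every array (points, log2 units) with group means (lines) for the 5 members with the largest called rises and the 2 with called falls in XX329 (orange) against XX329 mix (blue), beside all other groups (grey). The orange points lie above the blue points in the first 5 panels, from 2.05 to 4.34 log2 units on average, and below them in the last 2.

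Set against the lines that chose the members, as a description with no test, XX329 varied widely. The XX329 mean was at or below that of Extracted-tetra in 47 members, between Extracted-tetra and TAA10 in 35 and at or above TAA10 in 18. The share of the gap covered by XX329, on the log2 scale, had a median of 7.85% and quartiles of −24.8% and 78.7%. It was at least 50% in 29 members. XX329 mix, the level of the parents combined, lay a median of −0.34 log2 units from Extracted-tetra, and 70 members had a higher mean in XX329 than in this mix. For the 34 members with a gap of at least 1 log2 unit the median was −4.14%, and 8 of them were called higher and 2 lower against the mix. For the 66 with smaller gaps it was 21.1%, with 14 called higher and 0 lower in limma. XX329 mix itself was at or below Extracted-tetra in 94 members, which the limit on TQ18 largely sets in advance. Its arrays lay wholly below those of TAA10 in 91 (10.3% of all probe sets, 10.9% of the other candidates), a comparison that TAA10, as part of the rule, shapes.

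Arrays of every group spread more on these members than on the other candidates. The median SD over members was 0.386 log2 units in XX329, against 0.184 for XX329 mix, 0.261 in TTR13, 0.112 in TD265 and 0.186 in Blackbird. Over the other candidates the median was 0.23 for XX329, 0.131 for the mix, 0.142 for TTR13, 0.0828 for TD265 and 0.109 for Blackbird. The lines that chose the members had 0.273 for Extracted-tetra and 0.247 for TAA10 over members, and 0.115 and 0.116 over the other candidates. An SD over 1 log2 unit was found in 13 members in XX329 and in 5 in XX329 mix, against 1.41% and 0.075% of the other candidates. No test was made of these spreads.

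The array that stood apart differed between the widest members. Ta.9449.2.S1_at read 4.37, 4.69 and 9.41 in XX329, against 6.69, 6.56 and 5.67 in XX329 mix, and Ta.9449.2.S1_x_at, of the same name stem, read 4.75, 5.10 and 9.07 in XX329. Here replicate 3 was high. Ta.13161.2.A1_s_at read 5.13, 9.48 and 9.30 in XX329, so replicate 1 was low. Ta.12102.3.S1_at read 4.71, 6.15 and 8.42 in XX329, with all arrays apart. Over the 100 members, replicates 1, 2 and 3 of XX329 gave the highest value in 32, 33 and 35 members and the lowest in 41, 18 and 41. These probe sets were named after their values were seen.

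**Figure D4:**
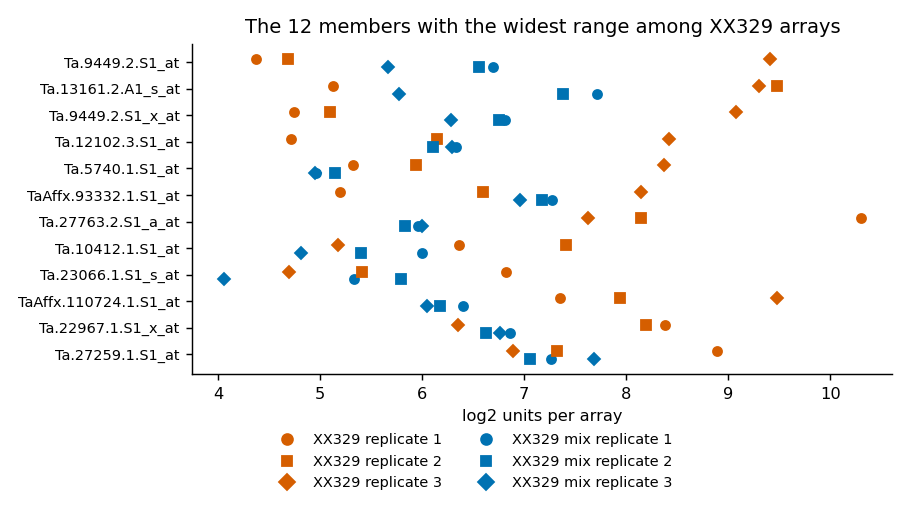
Values of every XX329 array (orange, upper symbols) and every XX329 mix array (blue, lower symbols) in log2 units for the 12 members with the widest range among XX329 arrays. Ta.9449.2.S1_at spans 5.03 log2 units in XX329, and different replicates are high or low in different members.

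The natural tetraploids had the B and A genomes without a D genome, as Extracted-tetra has, and they stood on both sides of it. Their levels were tested against XX329 mix, whose arrays the rule did not use. The mix holds RNA of Extracted-tetra and TQ18, however, whose levels the rule limited. Its mean was at or below that of Extracted-tetra in 94 members, which the limit on TQ18 largely sets in advance. The mix lay a median of −0.34 log2 units from Extracted-tetra over members and −0.35 over the other candidates. The choice of members may favour higher calls, and how many of them it accounts for was not tested. In TTR13, 42 members were higher and 11 lower than in XX329 mix (limma; 11.7% and 8.69% of all probe sets; 26.6% and 9.66% of the other candidates). In TD265, 45 were higher and 19 lower (17% and 12.8% of all probe sets; 25.8% and 21.9% of the other candidates). In Blackbird, 40 were higher and 19 lower (15.2% and 11.6% of all probe sets; 24.6% and 16.6% of the other candidates). The 3 comparisons share the XX329 mix arrays, as does that of XX329.

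The TQ18 RNA in the mix lowers transcripts that TQ18 does not make, which raises these differences. With the natural lines diluted by calculation with the TQ18 level in the same proportions, a setting chosen after the data were seen, 27, 32 and 24 members were higher in TTR13, TD265 and Blackbird, against 6.35%, 8.66% and 7.35% of the other candidates. Over all probe sets the higher calls were then 8.48%, 12.9% and 11.3%. The lower calls numbered 11, 18 and 18, against 13.8%, 26.3% and 21% of the other candidates and 2.98%, 5.72% and 4.49% of all probe sets. With arrays centred on the hybridisation controls, which moves all Blackbird differences by 0.75 log2 units, Blackbird had 73 higher and 8 lower. With the actin difference as a covariate it had 25 higher and 12 lower. Shares of all probe sets were not counted for these settings, so the counts show only how far the calls depend on them.

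Called higher than the mix in every natural line were 23 members (2.88% of all probe sets, 7.57% of the other candidates). The largest was TaAffx.110724.1.S1_at, at 11.6 ± 0.252 in TTR13, 10.9 ± 0.0206 in TD265, 10.8 ± 0.572 in Blackbird and 6.21 ± 0.182 in XX329 mix (SD, n = 3 each). Against XX329 mix, limma gave adjusted p = 1.99e-12, 3.36e-11 and 7.37e-11. TAA10 read 8.91, 9.17 and 7.46, below every array of the natural lines. TaAffx.85866.1.S1_at averaged 11.05 in TTR13, 9.70 in TD265, 11.12 in Blackbird, 6.02 in XX329 mix and 8.37 in TAA10. TaAffx.85073.1.S1_at averaged 10.02 in TTR13, 7.87 in TD265, 10.39 in Blackbird, 5.05 in XX329 mix and 8.35 in TAA10. Ta.27763.2.S1_a_at was called too, with 9.82 in TTR13, 8.04 in TD265, 9.82 in Blackbird and 5.93 in XX329 mix. Ta.5740.1.S1_at averaged 7.77 in TTR13, 7.98 in TD265, 7.92 in Blackbird, 5.02 in XX329 mix and 6.66 in TAA10.

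Called lower than the mix in every natural line were 3 members (4.99% of all probe sets). TaAffx.71755.1.A1_at averaged 3.63 ± 0.207 in TTR13, 3.40 ± 0.177 in TD265 and 3.38 ± 0.0931 in Blackbird, against 6.58 ± 0.141 in XX329 mix (SD, n = 3 each; limma adjusted p from 2.02e-14 to 1.46e-13). It was bright only in Extracted-tetra (mean 7.32), XX329 (6.88), XX329 mix (6.58) and TAA10 (8.03), and every other group mean was 3.64 or lower. Ta.18206.1.S1_at averaged 3.74 in TTR13, 5.53 in TD265, 5.44 in Blackbird and 7.54 in XX329 mix. Ta.12102.3.S1_at averaged 3.93 in TTR13, 3.72 in TD265, 4.44 in Blackbird and 6.24 in XX329 mix. Apart from Ta.18206.1.S1_at in TD265 and Blackbird, these levels in natural lines are near or under the array medians, so the size of the folds is not secure.

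Set against the lines that chose the members, as a description, TTR13 lay at or above TAA10 in 29 members, between in 24 and at or below Extracted-tetra in 47. TD265 gave 31, 30 and 39, and Blackbird 30, 22 and 48. All 3 natural lines were at or above TAA10 in 10 members and at or below Extracted-tetra in 24. In 49 members no natural line reached the TAA10 mean.

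The natural lines differed from one another on these members. The range of their means had a median of 0.99 log2 units, or 1.98-fold, against 0.52 log2 units, or 1.43-fold, over the other candidates, and it was over 2 log2 units in 24 members, against 7.94% of the other candidates. Between TTR13 and TD265, limma called 25 members higher and 18 lower (11.6% and 10.7% of all probe sets; 26.1% and 14.3% of the other candidates). Between TTR13 and Blackbird it called 23 and 12 (8.43% and 7.82% of all; 19.8% and 11.3% of the other candidates), and between TD265 and Blackbird 23 and 20 (9.59% and 10.5% of all; 18.3% and 21.5% of the other candidates). These shares were thus close to those of the other candidates, and the last pair of comparisons crosses the sets of arrays.

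The widest range was in TaAffx.100436.1.S1_at, at 9.88 ± 0.278 in TTR13, 5.10 ± 0.151 in TD265 and 11.4 ± 0.294 in Blackbird (SD, n = 3 each). TAA10, at 10.1, was nearest to TTR13. TaAffx.55262.1.S1_at averaged 9.96 in TTR13, 4.63 in TD265 and 7.98 in Blackbird, with 7.09 in TAA10. Ta.27307.1.S1_at averaged 6.97 in TTR13, 8.08 in TD265 and 2.79 in Blackbird. The 3 members were lowest in TD265, TD265 and Blackbird, so no line was low throughout.

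**Figure D5:**
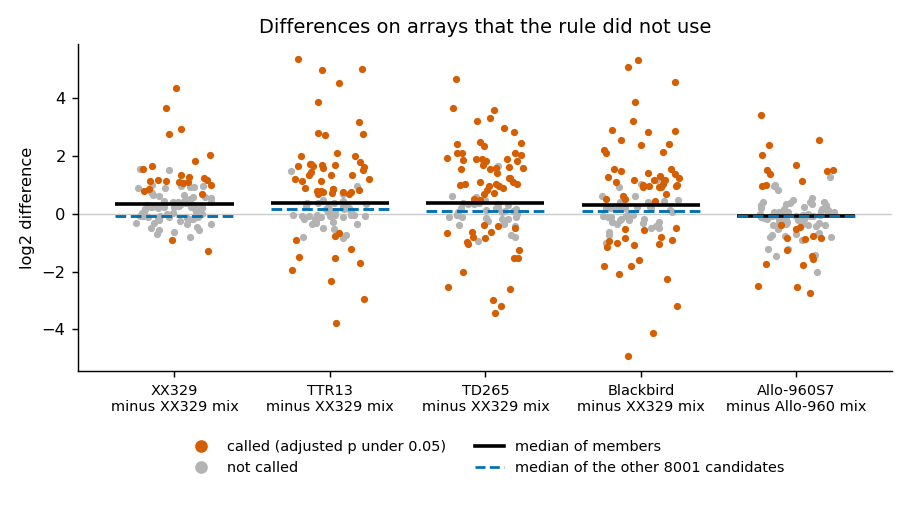
Log2 differences of the 100 members (points; orange where called by limma) in 5 comparisons of arrays that the rule did not use, with the median of the members (black) and of the other 8001 candidates (blue, dashed). The members' median is 0.34 for XX329 against its mix and −0.09 for Allo-960S7 against its mix, where the medians of members and other candidates nearly coincide.

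Allo-960S7 shares no parent with Extracted-tetra, and none of its arrays or those of its mix entered the rule, although the mix holds RNA of 30A, whose mean was part of the D genome limit. Against Allo-960 mix, 12 members were higher and 15 lower (limma; 3.3% and 5.25% of all probe sets; 6.27% and 15.5% of the other candidates). The median difference was −0.09 log2 units over members and −0.08 over the other candidates. TaAffx.85073.1.S1_at, TaAffx.85866.1.S1_at and Ta.17127.1.A1_at, which rose most in XX329, were also called higher here. Their log2 differences were 1.48, 1.52 and 1.37 (limma adjusted p = 0.0197, 0.0118 and 0.0117). Without Allo-960 mix replicate 2 none of them was called (limma adjusted p = 0.127, 0.0939 and 0.076). The lower count was 9 without Allo-960S7 replicate 1, without Allo-960S7 replicate 2 or without Allo-960 mix replicate 2. With array weights it was 28.

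The departures of the hexaploids from their mixes were compared directly by an interaction contrast. It was positive, that is higher for XX329, in 26 members and negative in 4 (limma; 2.32% and 1.7% of all probe sets; 5.72% and 4.09% of the other candidates). The positive count was 15 without Allo-960S7 replicate 1, 17 without Allo-960S7 replicate 2 and 17 without XX329 mix replicate 3. It was 13 in a fit limited to the 4 groups and 14 with control centring. Ta.16423.1.S1_at showed a positive difference through a fall in Allo-960S7, which read 7.41, 6.08 and 6.88, against 9.22, 9.67 and 9.12 in Allo-960 mix (−2.55, SE 0.30; limma adjusted p = 7.03e-07). XX329 and XX329 mix averaged 9.68 and 9.52 for it. Ta.22628.1.S1_at showed a negative difference through a rise in Allo-960S7, which read 7.43, 7.17 and 6.69, against 2.88, 4.07 and 4.09 in Allo-960 mix (3.42, SE 0.26; limma adjusted p = 4.73e-10). Blackbird and 30A averaged 4.31 and 2.76, so Allo-960S7 was above both its parents. Ta.22628.1.S1_x_at, of the same name stem, rose by 2.55 (SE 0.23; limma adjusted p = 9.89e-09).

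Names and shared sequence say little more about the members. A gene symbol was given for 3 of the 100 and none for 97, and the symbols carried no alias, so no function is stated. LOC542856 (Ta.250.1.S1_at) had 6.14 ± 0.195 log2 units for Extracted-tetra, 6.14 ± 0.639 for XX329, 5.73 ± 0.164 for its mix and 6.85 ± 0.291 in TAA10 (SD, n = 3 each). LOC100037633 (TaAffx.109327.1.S1_at) had 7.08 ± 0.455 for Extracted-tetra, 7.78 ± 0.608 for XX329, 7.07 ± 0.174 for its mix and 7.57 ± 0.239 in TAA10 (SD, n = 3 each). LOC606310 (Ta.27790.1.S1_s_at) had 8.25 ± 0.311 for Extracted-tetra, 7.94 ± 0.626 for XX329, 7.70 ± 0.461 for its mix and 8.72 ± 0.612 in TAA10 (SD, n = 3 each). XX329 did not pass the test against its mix for any of them (limma adjusted p = 0.464, 0.123 and 0.823). LOC606310 was higher in all natural lines than in XX329 mix, 9.04-fold in TTR13, 5.3-fold in TD265 and 4.39-fold in Blackbird (limma adjusted p = 3.27e-10, 6.79e-08 and 7.08e-07).

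The members came from 89 name stems, and 11 stems held 2 members each, so 22 members are not independent readings. Probe sets of the x type, whose probes are shared between unlike transcripts, were 17 of the 100, close to 17.6% of the other candidates. The same stems held 66 probe sets that are not members, in 35 of the stems. Of these, 50 had a lower mean in Extracted-tetra than in TAA10, with a median difference of −0.20, against 0.05 over all probe sets; 30 of the 66 had a TAA10 mean of at least 6. Between XX329 and XX329 mix, limma called 1 of the 66 higher and 2 lower.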

How the data were processed

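The deposited values were on the log2 scale, with 1 summary of each probe set for each array; RMA and limma are named, without versions, in the submitters' processing notes. RMA equalises the arrays' distributions, so a loss shared by most transcripts cannot be seen. The 111 control probe sets were dropped. Means of the 11 groups were estimated together from 33 arrays by lmFit and eBayes (limma 3.58.1, R 4.3.3; 28.5 total degrees of freedom). P-values were adjusted by Benjamini-Hochberg over 61179 probe sets per contrast and called under 0.05. Arrays have no depth; their number limits precision. On simulated data of 61179 probe sets, XX329 against XX329 mix recovered 32% of 1.5-fold and 81% of 2-fold changes, with 9 false calls. The simulated noise had a single spread per probe set for all groups. In the data the median SD over all probe sets was 0.186 log2 units for XX329 and 0.156 for XX329 mix. The simulation changed 100 probe sets at each fold, whereas 575 were called higher and 577 lower in the data, which alters the adjusted p. The recovered shares may therefore be too high or too low.

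Members and lists were chosen with earlier results of these data known. Probe sets named are the 10 lowest in Extracted-tetra minus TAA10, those with a symbol, the 5 highest and 5 lowest called in XX329 minus XX329 mix and, among those called 1 way in all natural lines, in their mean difference from the mix, the 3 widest natural ranges, the 3 highest and 3 lowest called interactions, and 3 on each side of rank 100. The planned function lists could not be filled, since the names used here hold no descriptions. Of 1273 probe sets with 1 symbol, 1272 matched RefSeq (IWGSC CS RefSeq v2.1, names only). Same-numbered arrays did not deviate together, so groups were treated as unpaired. Alternatives changed the normalization, the error model, the probe sets or the arrays; those for membership changed the rule's limits.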

Additional observations from a re-analysis of the deposited data

Results flagged for a closer look

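The departure from the parental RNA mix differed between XX329 and Allo-960S7 by limma's test in 26 members positively and in 4 negatively. The 3 highest and 3 lowest of those called are given here. The contrast was positive, with XX329 higher relative to its mix than Allo-960S7 to its own, at 2.94 log2 units for TaAffx.110724.1.S1_at (adjusted p = 0.0011), 2.87 for TaAffx.85073.1.S1_at (adjusted p = 0.00274) and 2.71 for Ta.16423.1.S1_at (adjusted p = 0.00016). For Ta.16423.1.S1_at the difference was 0.16 in XX329 (adjusted p = 0.904) and −2.55 in Allo-960S7, and for TaAffx.110724.1.S1_at it was 2.05 and −0.90 (the last with adjusted p = 0.172). For TaAffx.85073.1.S1_at it was 4.34 and 1.48 (the last with limma adjusted p = 0.0197), so both hexaploids were above their mixes. The contrast was negative, at −3.20 for Ta.22628.1.S1_at (adjusted p = 2.09e-06), −2.52 for Ta.12547.1.S1_at (adjusted p = 2.38e-05) and −2.14 for Ta.22628.1.S1_x_at (adjusted p = 0.000131). Ta.12547.1.S1_at read 6.26, 5.29 and 4.73 in Allo-960S7, against 2.93, 3.07 and 3.09 in Allo-960 mix, and TAA10 was the other group in which it was bright. With 3 arrays per group, single arrays were not screened as outliers.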

How the results depend on the processing

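Between 80 and 99 of the 100 members were chosen again when single arrays of the 4 groups used by the rule were left out, and 77 to 93 under other limits, normalizations or probe set types. For XX329 against XX329 mix (22 higher, 2 lower), leaving out single arrays gave 15 to 23 higher and 1 to 6 lower; control centring gave 13 higher, and the limited fit 4 higher and 0 lower, with the same differences but fewer arrays to estimate the error. The lower count was 1 with median centring, repeated quantile normalization, the replicate block, the actin covariate, a 2-fold minimum or without Allo-960S7, its mix, Blackbird and 30A, and 4 with array weights. The replicate block, with the pairing of numbers unsupported by the arrays, gave 20 higher and moved no other count by over 1.5 times. Single arrays left out gave 32 to 39 higher and 9 to 11 lower for TTR13, 39 to 44 and 13 to 19 for TD265, and 29 to 39 and 15 to 19 for Blackbird, each against XX329 mix; 8 to 10 and 9 to 18 for Allo-960S7 against its mix; and 15 to 25 and 4 to 5 for the interaction. Calculated dilution gave 27 higher for TTR13 and 24 for Blackbird. For Blackbird, control centring, which moves all its differences by 0.75 log2 units, gave 73 higher and 8 lower, and the actin covariate 25 and 12. A 2-fold minimum left 10 lower for TD265, 11 for Blackbird and 8 for Allo-960S7. Array weights gave 28 lower for Allo-960S7. The interaction had 14 positive calls with control centring and 13 in the limited fit. Ta.21082.2.S1_s_at turned to 0.23 in Blackbird against XX329 mix with control centring; the cause was not tested. Signals near the array medians limit the folds.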
